A study of Mus musculus with 24 samples.

Results

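The loss of *Brg1* was added to the loss of *Chd4* in liver sinusoidal endothelial cells (LSECs), and transcripts of the resulting *Chd4/Brg1-ECDKO* LSECs were compared with those of *Chd4-ECKO* LSECs at embryonic day (E) 12.5. Each group had 3 libraries, so the comparison used 6 of the 24 libraries of the series, and these were chosen by their labels for cell type and genotype. Each library came from the CD146+ (MCAM+) cells of a mouse embryonic liver, taken up with magnetic beads after digestion with transcription inhibitors. *Chd4-ECKO* embryos carried floxed *Chd4* on both alleles, floxed *Brg1* on a single allele (Chd4 fl/fl, Brg1 fl/+) and VE-cadherin-Cre, which is active in endothelial cells and in some blood cells of the fetal liver. *Chd4/Brg1-ECDKO* embryos carried the same Cre with both genes floxed on both alleles (Chd4 fl/fl, Brg1 fl/fl). The comparison was therefore between cells with a single floxed *Brg1* allele and cells with both *Brg1* alleles floxed, all on a Chd4 fl/fl background. Cre-negative controls (Cre-) with floxed alleles of both genes, and *Brg1-ECKO* embryos (Brg1 fl/fl, Chd4 fl/+ with the Cre), gave 3 LSEC libraries each. These entered the estimate of the spread and are given beside the 6 as levels. The embryos were of mixed strain background and of both sexes. The comparison asks which transcripts of *Chd4*-deficient LSECs depend on BRG1.

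CHD4 is the ATPase of the nucleosome remodeling and deacetylase (NuRD) complex, which moves nucleosomes and removes histone acetylation, and is mostly known as a repressor. BRG1, encoded by *Smarca4*, is an ATPase of the SWI/SNF complexes, which slide and evict nucleosomes and are mostly known to open chromatin. Both enzymes act at promoters and enhancers of endothelial genes during development. LSECs line the sinusoids of the liver, where they scavenge macromolecules through receptors such as STAB2, LYVE1 and MRC1, and where leukocytes and fetal blood cells pass close to the hepatoblasts.

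The files gave expression as TPM, a length-corrected share of all transcripts of a library, so the reads behind a value are unknown and no counting interval is given. Between 12746 and 13219 genes were at 1 TPM or more in each of the 12 LSEC libraries. Replicates of the 6 compared libraries correlated with a Pearson r of 0.978 to 0.989 across genes, which are not independent replicates, and mitochondrial genes took 13.9% to 31.46% of their TPM. The gene-level TPM of the targeted genes could not check the genotypes, because it also counts reads from the exons that Cre leaves in place. *Chd4* was at 223, 168 and 252 TPM in *Chd4-ECKO*, at 242, 249.8 and 256 TPM in *Chd4/Brg1-ECDKO* and at 285, 255 and 246 TPM in control libraries. *Smarca4* was at 141, 99.9 and 140.4 TPM in *Chd4-ECKO*, at 130.5, 117 and 151 TPM in *Chd4/Brg1-ECDKO* and at 161, 144 and 134 TPM in control libraries. Both genes overlapped between the compared groups. The endothelial identity of the fraction could be read from *Cdh5*, which encodes VE-cadherin, with 324 and 299.8 TPM on average in *Chd4-ECKO* and *Chd4/Brg1-ECDKO* LSECs against 10.6 and 7.67 TPM in the non-EC cells of the same genotypes. The Y-linked gene *Eif2s3y* was high in *Chd4-ECKO* replicates 1 and 2 and in *Chd4/Brg1-ECDKO* replicate 1, and low in the remaining 3 libraries, so that sex was not balanced between the groups. It was at 33.1, 64.2 and 23.8 TPM in control and at 0.69, 1.73 and 19.9 TPM in *Brg1-ECKO* LSEC libraries. Comparisons with control were therefore not balanced for sex either.

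The double mutant differed from the single mutant in 5 genes. *Thy1*, *Sncg*, *Prl3b1* and *Cpa1* were lower with the added loss of *Brg1*, and *Nkx2-3* was higher. A gene was called a differentially expressed gene (DEG) when its log2(TPM + 1) differed by more than 1 and its adjusted p from limma was under 0.05 over all 13444 genes at 1 TPM or more in at least 3 LSEC libraries. By this rule 5 genes (0.0372% of those tested) were DEGs, 4 of them lower (0.0298%) and 1 higher (0.00744%) in *Chd4/Brg1-ECDKO*, and the adjusted p alone gave the same 5 genes. The count depended on the fit, with 52 DEGs (33 higher, 19 lower) when the compared groups were fitted alone and 65 (40 higher, 25 lower) with library weights. Most genes stood slightly higher in the double mutant: the median log2 difference of all genes was 0.13, and 73.2% of genes were above 0. This lean depended on the scaling, as 50.4% of genes were above 0 after median-ratio scaling and 51.3% after quantile normalization, and the shares of all genes given beside the lists are those of the deposited TPM unless another scaling is named. Of 1397 genes (10.4%) with an unadjusted p under 0.05, 1185 (8.81% of those tested) were higher and 212 (1.58%) were lower. The direction of this split depended on the scaling, with 84.8% higher in the deposited TPM, 43.9% after median-ratio scaling and 44.6% after quantile normalization, and the same 4 lower genes remained DEGs under each of the 3. *Nkx2-3* kept its direction but had an adjusted p of 0.0531 after median-ratio scaling and 0.073 after quantile normalization. Leaving out any 1 of the 3 *Chd4-ECKO* libraries left 0 DEGs by limma, with 1658, 542 and 1610 genes at an unadjusted p under 0.05, and leaving out *Chd4/Brg1-ECDKO* replicate 1, 2 or 3 left 4, 2 and 2 DEGs.

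**Figure D1:**
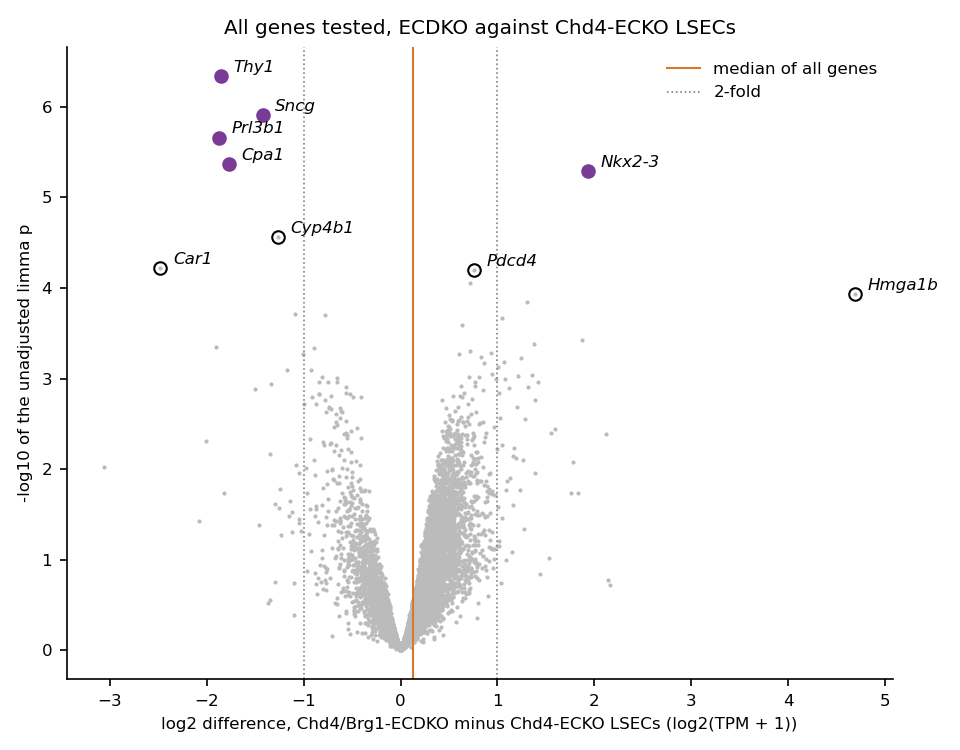
Each point is a gene tested, with the log2 difference of *Chd4/Brg1-ECDKO* minus *Chd4-ECKO* LSECs on the x axis and the −log10 of its unadjusted limma p on the y axis. Filled points are the 5 DEGs, open circles are 4 further genes described in the text, and the solid line at 0.13 is the median of all genes. The 4 lower DEGs stand at the upper left, apart from the other genes, and *Hmga1b* has the largest difference but a smaller −log10 p than the DEGs.

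*Thy1* encodes a GPI-anchored surface glycoprotein of neurons, T cells and fibroblasts. It was at 13.1, 13.6 and 12.4 TPM in the *Chd4-ECKO* libraries and at 2.74, 2.902 and 3.03 TPM in the *Chd4/Brg1-ECDKO* libraries. All *Chd4-ECKO* libraries were far above all others, as the control libraries were at 2.82, 3.41 and 2.96 TPM and the *Brg1-ECKO* libraries at 1.44, 2.03 and 3.703 TPM. The mean fell from 13.04 ± 0.608 TPM to 2.89 ± 0.146 TPM (SD, n = 3), a log2 difference of -1.85 (SE 0.21, adjusted p = 0.00611). The double mutant differed from control by -0.06 on the log2 scale (adjusted p = 0.915).

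*Sncg* encodes γ-synuclein, a small cytosolic protein known best from peripheral neurons. It was at 33.3, 31.4 and 31.4 TPM in *Chd4-ECKO* and at 9.23, 11.1 and 14.1 TPM in *Chd4/Brg1-ECDKO* libraries. It differed by -1.42 on the log2 scale (SE 0.18, adjusted p = 0.00824). Control libraries were at 16.9, 11.97 and 13.3 TPM and *Brg1-ECKO* libraries were the lowest, at 6.45, 8.39 and 8.35 TPM. The double mutant overlapped the control and lay above every *Brg1-ECKO* library.

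*Prl3b1* encodes a placental lactogen of the prolactin family. It was near the detection limit in all groups but *Chd4-ECKO*, where the libraries were at 3.48, 3.95 and 2.301 TPM. The *Chd4/Brg1-ECDKO* libraries were listed at 0, 0.502 and 0 TPM, the control libraries at 0.4605, 0 and 0.266 TPM and the *Brg1-ECKO* libraries at 0, 0.248 and 0 TPM. The log2 difference was -1.87 (SE 0.24, adjusted p = 0.00981), and it met the filter on low values only through the *Chd4-ECKO* libraries, so that it had to differ to be tested. With a pseudocount of 0.1 TPM in place of 1 TPM its adjusted p was 0.303, and with *Eif2s3y* as a sex covariate it was 0.0519. Of the 12 placental hormone genes listed, *Prl3b1* was the only one high enough to be tested, and 10 were listed at 0 in all 6 libraries.

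*Cpa1* encodes the pancreatic digestive enzyme carboxypeptidase A1. It was at 9.89, 7.51 and 6.29 TPM in *Chd4-ECKO* and at 2.28, 1.46 and 1.11 TPM in *Chd4/Brg1-ECDKO* libraries, a log2 difference of -1.77 (SE 0.24, adjusted p = 0.0138). In TPM recomputed without mitochondrial genes its adjusted p was 0.0724. Unlike the 3 genes above, *Cpa1* was not a DEG of *Chd4-ECKO* against control (0.81 on the log2 scale, adjusted p = 0.239). The control libraries, at 3.72, 5.45 and 3.13 TPM, lay between the 2 mutants without overlapping either, and the *Brg1-ECKO* libraries, at 0.979, 1.92 and 1.82 TPM, overlapped the double mutant. Only 3 of the 14 pancreatic exocrine genes listed were tested. All 3 were below 0, beside 26.8% of all genes, and 2 of them were lower without overlap of libraries, beside 2.25%. At an unadjusted p under 0.05, *Cpa1* alone was lower, beside 1.58% of all genes. After median-ratio scaling all 3 were lower at that level, beside 5.16%. Among these, the elastase gene *Cela1*, at 9.58 and 6.18 TPM on average in the single and double mutant, differed by -0.50 on the log2 scale and did not pass the test (adjusted p = 0.503 by limma). The acinar enzyme genes *Prss1* and *Ctrb1* were listed at 0 in all 6 libraries.

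*Nkx2-3* encodes an NK-type homeobox transcription factor that patterns the vessels of spleen and gut, and it was the only DEG that was higher in the double mutant. It was at 9.54, 9.96 and 15.1 TPM in *Chd4/Brg1-ECDKO* and at 1.83, 2.63 and 2.26 TPM in *Chd4-ECKO* libraries, with a log2 difference of 1.93 (SE 0.27, adjusted p = 0.0138). The *Chd4-ECKO* libraries overlapped the controls, at 1.63, 3.22 and 2.81 TPM. The *Brg1-ECKO* libraries, at 4.13, 7.399 and 9.54 TPM, were all above both of these and reached the lowest double mutant library. Among the alternatives run, *Nkx2-3* kept its direction in all and an adjusted p under 0.05 in 7 of 18, and it was 0.0842 with the sex covariate and 0.0628 without mitochondrial genes. *Madcam1*, a known target of NKX2-3 that encodes an adhesion molecule, was at 3.04, 5.03 and 3.04 TPM in *Chd4-ECKO* and at 3.42, 8.19 and 7.86 TPM in *Chd4/Brg1-ECDKO* libraries and overlapped between them (0.62 on the log2 scale, unadjusted p = 0.0619, adjusted p = 0.499 by limma). Of 14 NK homeobox genes listed, *Nkx6-2* was the only other one tested, and it differed by 0.13 on the log2 scale (adjusted p = 0.871).

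**Figure D2:**
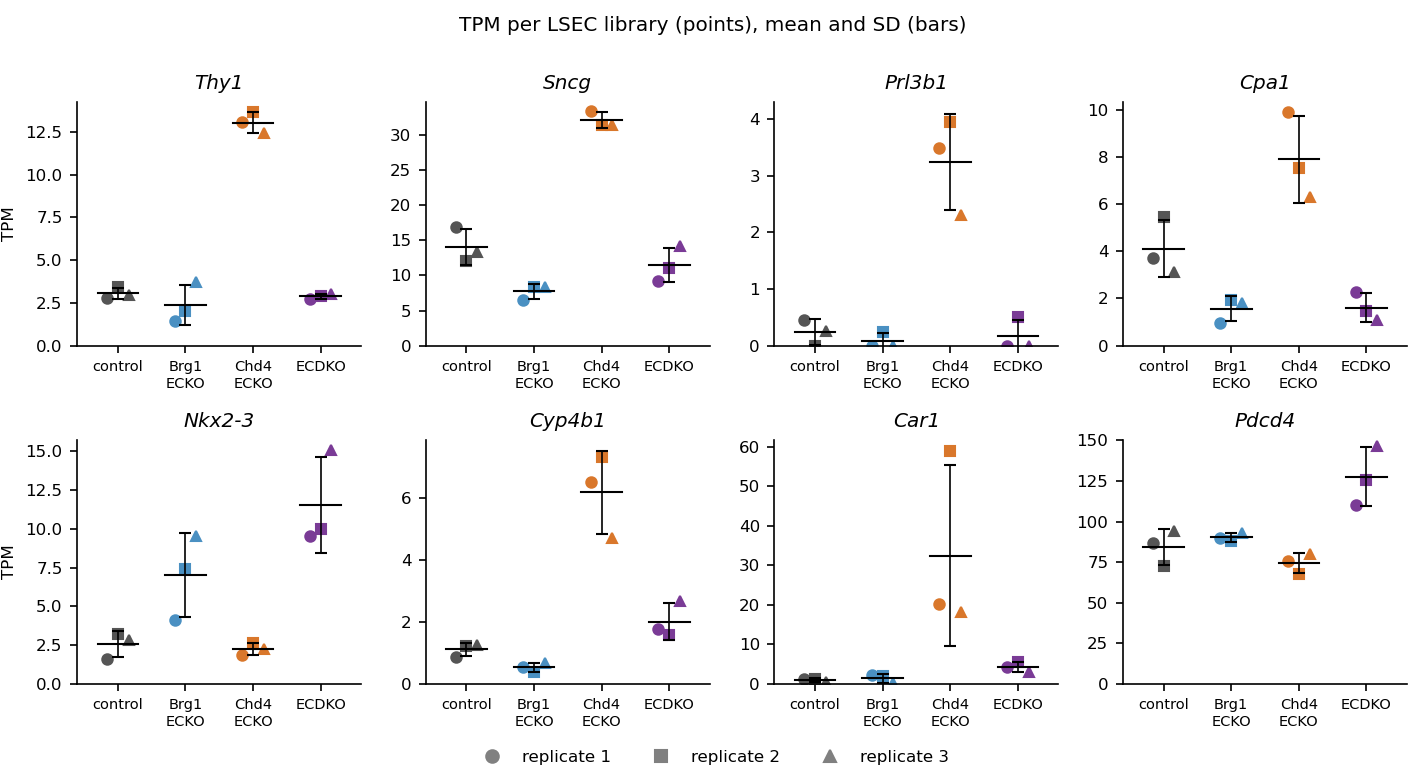
TPM of 8 genes in the 12 LSEC libraries. Points are libraries, with the shape giving the replicate number, and bars are the mean and SD of 3 libraries. *Thy1*, *Sncg*, *Prl3b1*, *Cpa1*, *Cyp4b1* and *Car1* are highest in all *Chd4-ECKO* libraries, and *Pdcd4* in all *Chd4/Brg1-ECDKO* libraries.

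The 5 DEGs lie on different chromosomes, in the GRCm39 build used by the files and with the GENCODE vM39 annotation. *Thy1* spans chr9:43954332-43959880 on the + strand, *Sncg* chr14:34092231-34100539 on the − strand, *Prl3b1* chr13:27425830-27433666, *Cpa1* chr6:30639217-30645362 and *Nkx2-3* chr19:43600764-43604331, the last 3 on the + strand. Their promoters are printed because these are the genes that the comparison rests on and both enzymes are known to act at promoters, but binding was not measured in these data. Each runs 5′ to 3′ on the strand of the gene, from 250 bases before the annotated start of its canonical transcript to 50 bases after it. Capitals mark a match, on either strand, to any of 5 motifs searched. The TATA box was searched as TATAAA and the GC box of SP1-type factors as GGGCGG. The site of the AP-1 factors was searched as TGANTCA. The site of ETS factors, which act widely in endothelial cells, was searched as CCGGAAG, and that of GATA factors as AGATAA.
Thy1 promoter, chr9:43954282-43954581: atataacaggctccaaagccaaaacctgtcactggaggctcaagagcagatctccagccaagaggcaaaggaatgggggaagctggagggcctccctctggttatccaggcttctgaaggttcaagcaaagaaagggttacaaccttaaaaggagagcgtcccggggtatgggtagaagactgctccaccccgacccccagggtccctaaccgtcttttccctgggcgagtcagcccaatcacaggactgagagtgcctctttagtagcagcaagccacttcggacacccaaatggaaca
Sncg promoter, chr14:34100490-34100789: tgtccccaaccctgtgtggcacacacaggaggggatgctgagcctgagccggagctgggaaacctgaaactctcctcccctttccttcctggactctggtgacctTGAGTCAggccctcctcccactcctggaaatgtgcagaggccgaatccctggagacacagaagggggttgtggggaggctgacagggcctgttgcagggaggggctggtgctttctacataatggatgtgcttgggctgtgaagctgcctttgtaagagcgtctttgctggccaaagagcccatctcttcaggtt
Prl3b1 promoter, chr13:27426163-27426462: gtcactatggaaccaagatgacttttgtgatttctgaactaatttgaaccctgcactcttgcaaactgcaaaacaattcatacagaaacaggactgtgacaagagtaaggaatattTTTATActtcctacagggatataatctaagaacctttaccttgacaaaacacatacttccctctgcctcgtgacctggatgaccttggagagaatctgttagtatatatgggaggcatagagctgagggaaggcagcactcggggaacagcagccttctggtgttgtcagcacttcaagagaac
Cpa1 promoter, chr6:30638967-30639266: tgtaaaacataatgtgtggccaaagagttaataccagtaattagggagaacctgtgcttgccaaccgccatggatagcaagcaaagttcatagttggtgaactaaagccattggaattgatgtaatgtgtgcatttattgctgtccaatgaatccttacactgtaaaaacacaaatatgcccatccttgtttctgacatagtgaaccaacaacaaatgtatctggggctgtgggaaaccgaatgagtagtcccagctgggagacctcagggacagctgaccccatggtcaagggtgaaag
Nkx2-3 promoter, chr19:43600514-43600813: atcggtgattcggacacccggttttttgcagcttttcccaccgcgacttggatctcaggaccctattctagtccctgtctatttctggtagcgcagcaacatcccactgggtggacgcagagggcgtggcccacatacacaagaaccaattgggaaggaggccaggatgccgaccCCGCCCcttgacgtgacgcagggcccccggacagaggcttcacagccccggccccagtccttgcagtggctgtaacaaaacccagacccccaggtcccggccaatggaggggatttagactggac

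No motif of the 5 was found in more than 1 of these promoters. *Sncg* held TGANTCA, which 7.14% of 21770 protein-coding promoters of the same length hold. *Prl3b1* held TATAAA on the opposite strand (13.2% of all promoters), *Nkx2-3* held GGGCGG on the opposite strand (42.5%), and *Thy1* and *Cpa1* held no match. CCGGAAG, found in 10.3% of promoters, and AGATAA, found in 10.6%, were in none of the 5. The promoters ranged from 42.7% G and C in *Prl3b1* to 60% in *Nkx2-3*.

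Next in order of p came *Cyp4b1*, *Car1* and *Pdcd4*, which did not pass the adjusted threshold. *Cyp4b1*, a cytochrome P450 of fatty acid hydroxylation, was at 6.54, 7.34 and 4.72 TPM in *Chd4-ECKO* and at 1.76, 1.57 and 2.69 TPM in *Chd4/Brg1-ECDKO* libraries (-1.26 on the log2 scale, SE 0.21, adjusted p = 0.061). These levels did not overlap, and the control libraries, at 0.878, 1.21 and 1.24 TPM, were below both. *Car1*, the carbonic anhydrase of red blood cells, was at 20.2, 58.8 and 18.1 TPM in *Chd4-ECKO* and at 4.33, 5.57 and 3.01 TPM in *Chd4/Brg1-ECDKO* libraries. Its log2 difference was -2.48 (SE 0.44), with an adjusted p of 0.106, and with the replicate number as a block in the fit its adjusted p was 0.00483, which makes it a sixth DEG. The same block brought *Pdcd4*, a tumor suppressor that inhibits translation, under the adjusted p (adjusted p = 0.106 without and 0.04 with the block), at 75.7, 67.8 and 79.8 TPM in *Chd4-ECKO* and 110.4, 126 and 146 TPM in *Chd4/Brg1-ECDKO* libraries, less than a 2-fold difference (0.76 on the log2 scale).

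Among all genes tested, the libraries of the 2 groups did not overlap for 2137 (15.9%), with 1835 (13.6%) higher and 302 (2.25%) lower in the double mutant. The further genes named from these, by the smallest p in each direction, all had an adjusted p above 0.05. The lower genes included *Hpgd*, which degrades prostaglandins (98.3 ± 20.4 TPM against 56.3 ± 6.11 TPM, SD, n = 3, -0.78 on the log2 scale), the sulfotransferase gene *Chst7* (-1.09), *Fcrls*, an Fc receptor-like gene of macrophages and microglia (-1.90), and *Nefh*, the heavy neurofilament chain (-0.90). The higher genes included *Acat2*, an enzyme of lipid metabolism, at 56.4, 50.03 and 44.4 TPM in *Chd4-ECKO* and 83.8, 81.6 and 83.8 TPM in *Chd4/Brg1-ECDKO* libraries (0.72 on the log2 scale, adjusted p = 0.132). They also included *Susd3* (1.31), *Diras2*, a small Ras-like GTPase (1.05), *Rnf141*, a RING finger gene (0.63), *Stmn3*, a microtubule regulator (1.87), *Ppp1r3b*, which targets a phosphatase to glycogen (0.72), and the histone gene *H2bc27* (1.37). *Hmga1b* had the largest difference of the named genes (4.69, adjusted p = 0.157), at 1.79, 0.647 and 0.419 TPM in *Chd4-ECKO* and 42.2, 53.5 and 46.4 TPM in *Chd4/Brg1-ECDKO* libraries. It spread widely within the other genotypes, at 40.5, 1.77 and 32.99 TPM in control and 3.55, 22.2 and 1.25 TPM in *Brg1-ECKO* libraries, and since it shares nearly all of its sequence with *Hmga1*, the share of reads assigned to it is uncertain. In non-EC cells it was at 4.41, 4.92 and 5.801 TPM in *Chd4-ECKO*, 67.7, 127 and 117 TPM in *Chd4/Brg1-ECDKO* and 6.13, 147 and 5.05 TPM in *Brg1-ECKO* libraries.

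The genes changed by the loss of *Chd4* were then followed into the double mutant. Against control, *Chd4-ECKO* LSECs had 70 DEGs (0.521% of genes tested), 66 higher and 4 lower. These were chosen for their level in the same *Chd4-ECKO* libraries, so their differences between the 2 mutants are a description and carry no test. The 66 higher genes had a median log2 difference from control of 1.26 in *Chd4-ECKO*, 1.01 in *Chd4/Brg1-ECDKO* and 0.58 in *Brg1-ECKO* LSECs. Between the 2 mutants their median was −0.27, with a range of −2.48 to 1.03, beside 0.13 over all genes. Of the 66 genes, 55 were below 0 (26.8% of all genes were), 15 did not overlap and were lower (2.25% of all genes) and 4 did not overlap and were higher (13.6%). The choice of the genes favours lower values in this comparison, and nothing is read from these shares. In the double mutant *Thy1*, *Sncg* and *Prl3b1* lay below the control mean on the log2 scale. Against the same control libraries, 32 of the 66 were DEGs in the double mutant, beside 76 DEGs among all genes (0.565%).

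The other genes of the 66 had means above control in the double mutant, whether or not they passed the test, and some differed little between the mutants. *Tcfl5*, a basic helix-loop-helix factor of germ cells, was at 13.5, 17.8 and 10.96 TPM in *Chd4-ECKO* and at 11.5, 14.98 and 15.4 TPM in *Chd4/Brg1-ECDKO* libraries, against 1.69, 1.705 and 1.02 TPM in control. Its log2 difference between the mutants was 0.00 with a 95% interval of -0.43 to 0.44. *Nefh* was intermediate, at 13.8, 20.2 and 14.03 TPM in *Chd4-ECKO*, 7.75, 9.95 and 6.66 TPM in *Chd4/Brg1-ECDKO* and 1.15, 1.41 and 1.13 TPM in control libraries. *Apobec2* (-0.91 on the log2 scale between the mutants) and *Septin1* (-0.49) were intermediate as well. *Septin1*, a cytoskeletal GTPase, was at 32.9, 17.6, 74.8 and 52.7 TPM on average in control, *Brg1-ECKO*, *Chd4-ECKO* and *Chd4/Brg1-ECDKO* LSECs, so it was lowest in *Brg1-ECKO*. The 4 genes higher without overlap were named after their values were seen. They were the formin gene *Fmnl1* (0.29), the long noncoding RNA *Snhg11* (1.03), the interleukin 10 receptor gene *Il10ra* (0.74) and the phospholipase gene *Plcg2* (0.47). Of the 4 genes lower in *Chd4-ECKO*, the arterial connexin gene *Gja4* was higher in the double mutant (6.898, 7.77 and 9.22 against 11.3, 13.1 and 16.8 TPM, control 18.5, 24.99 and 20.2 TPM), and *Gja5*, *Chp2* and *Ly6a* were each below 0 between the mutants.

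**Figure D3:**
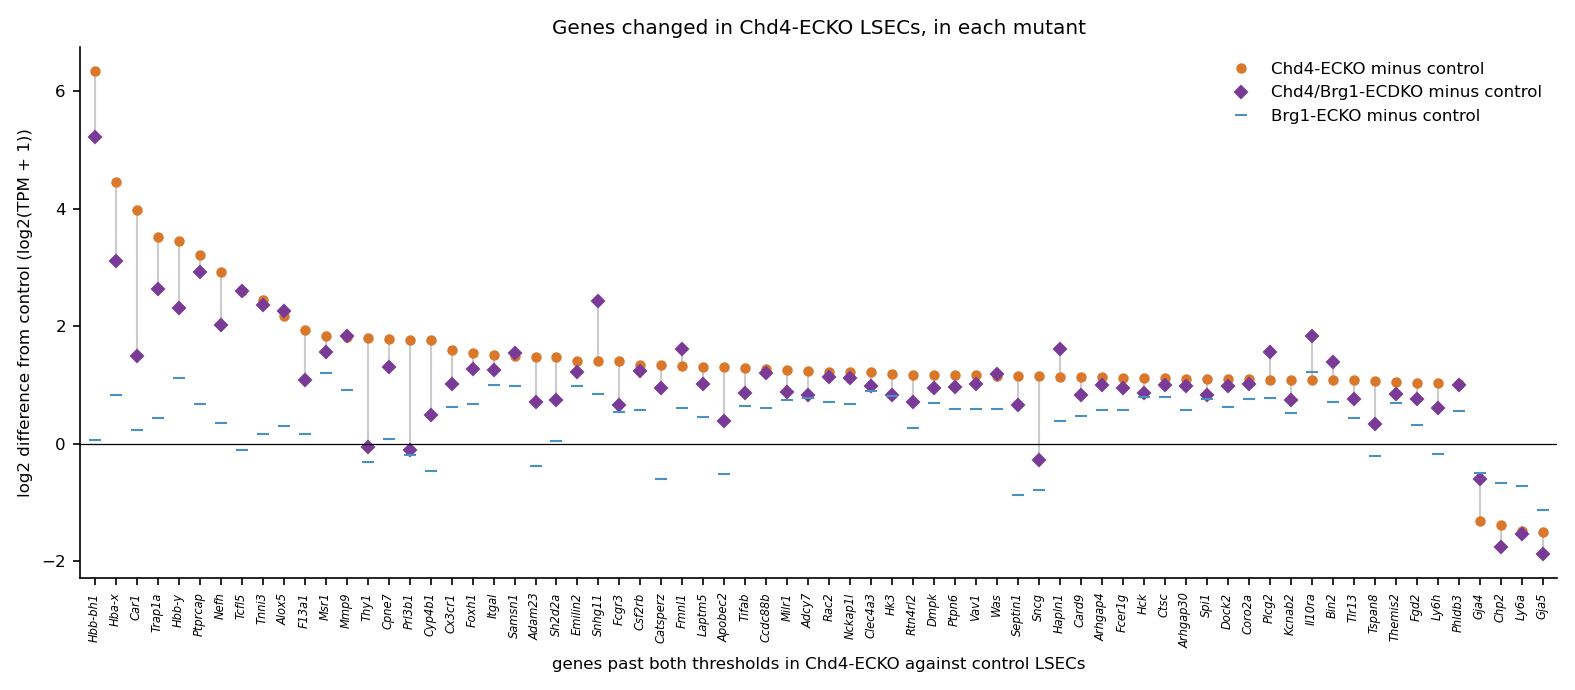
The 70 DEGs of *Chd4-ECKO* against control LSECs, ordered by that log2 difference. Circles, diamonds and dashes give the log2 difference from control in *Chd4-ECKO*, *Chd4/Brg1-ECDKO* and *Brg1-ECKO* LSECs, and grey lines join the 2 mutants compared. Most diamonds lie just below their circles, and those of *Thy1*, *Prl3b1* and *Sncg* lie at or below 0.

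Several of the 70 genes mark blood cells. Beside 0.521% of all genes, they held 7 of 17 genes tested that are expressed across blood cells, 4 of 25 myeloid genes, 3 of 3 embryonic globins and 1 of 18 red blood cell genes, *Car1*, all higher in *Chd4-ECKO*, and 1 of 14 genes of blood stem and progenitor cells, *Ly6a*, which was lower. The embryonic globin *Hba-x* was at 103, 467 and 254 TPM in *Chd4-ECKO* and at 113, 63.1 and 101 TPM in *Chd4/Brg1-ECDKO* libraries (-1.35 on the log2 scale, unadjusted p = 0.00677, adjusted p = 0.435 by limma). The 2 groups overlapped, since *Chd4-ECKO* replicate 1 was below *Chd4/Brg1-ECDKO* replicate 1. The summed TPM of the embryonic globins was 266, 1606 and 719 in *Chd4-ECKO*, 297, 261 and 325 in *Chd4/Brg1-ECDKO* and 29.5, 17.6 and 29.5 in control libraries. Both mutants were above control in every library. In bulk samples, fewer cells of a type and less RNA per cell cannot be told apart.

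Genes of inflammation and adhesion, which the study followed, did not reach the adjusted threshold between these mutants. The study compared such genes with control, gene by gene, and also measured several of them by qRT-PCR. Those tests are not the one given here. *Icam1*, an adhesion molecule that binds leukocytes, was at 50.8, 55.6 and 56.02 TPM in *Chd4-ECKO* and at 35.5, 37.3 and 46.2 TPM in *Chd4/Brg1-ECDKO* libraries. The groups did not overlap with each other, whereas the double mutant overlapped the control libraries at 38.9, 42.5 and 35.4 TPM (-0.45 on the log2 scale, 95% interval -0.72 to -0.17, unadjusted p = 0.00349, adjusted p = 0.401 by limma). *Plaur*, the receptor of urokinase, was at 13.7, 13.9 and 15.4 TPM in *Chd4-ECKO* and at 8.23, 11.5 and 9.06 TPM in *Chd4/Brg1-ECDKO* libraries, again with no overlap (-0.54, unadjusted p = 0.00594, adjusted p = 0.415 by limma). It was above every control library, at 5.65, 7.67 and 8.08 TPM, in all 6.
The cytokine gene *Tnf* was at 2.17, 1.93 and 2.33 TPM in *Chd4-ECKO* and 0.999, 0.8700 and 1.68 TPM in *Chd4/Brg1-ECDKO* libraries, without overlap (-0.54, unadjusted p = 0.051, adjusted p = 0.484 by limma). *Il1b* had the same log2 difference, -0.54, but its libraries overlapped, at 1.19, 1.22 and 1.11 TPM in *Chd4-ECKO* and 1.45, 0 and 0.3699 TPM in *Chd4/Brg1-ECDKO*. *Il6* stayed under 1 TPM in all 6 libraries and was not tested. *Vcam1* (0.33, 95% interval -0.000846 to 0.66), the NFκB subunit gene *Rela* (0.13, -0.16 to 0.42) and the plasminogen activator genes *Plat* (0.33, -0.09 to 0.74) and *Plau* (-0.07, -0.49 to 0.35) had intervals that include 0, although *Plat* did not overlap between the groups. *Rela* turned below 0 after either rescaling, and *Plau* turned above 0 without *Chd4-ECKO* replicate 3. Over the 21 genes tested of the NFκB response list the median was 0.12, close to the 0.13 of all genes. At an unadjusted p under 0.05, 2 were higher, beside 8.81% of all genes, and 1 was lower, beside 1.58%. After median-ratio scaling 1 was higher, beside 4.05%, and 3 were lower, beside 5.16%.

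Genes of the sinusoidal endothelium were mostly lower in the double mutant, though none passed the adjusted threshold. Of 15 genes tested, 13 were below 0, beside 26.8% of all genes. At an unadjusted p under 0.05, 6 of these were lower, beside 1.58% of all genes, and no gene was higher. The list's median was -0.32 beside 0.13 over all genes, and 7 genes were lower without overlap of libraries, beside 2.25% of all genes. After median-ratio scaling 9 genes were lower at an unadjusted p under 0.05, beside 5.16% of all genes. The 6 genes are named as the full set at that p, after their values were seen. The nuclease gene *Dnase1l3* was at 13.3, 11.7 and 14.3 TPM in *Chd4-ECKO* and at 7.796, 4.06 and 2.91 TPM in *Chd4/Brg1-ECDKO* libraries (-1.33 on the log2 scale, adjusted p = 0.331). The mannose receptor gene *Mrc1* was at 216, 201 and 239.9 TPM in *Chd4-ECKO* and at 142, 139 and 162 TPM in *Chd4/Brg1-ECDKO* libraries (-0.56, adjusted p = 0.331). The hyaluronan receptor gene *Lyve1* was at 541, 593 and 597 and 349, 448 and 427 TPM in these groups (-0.50, adjusted p = 0.469). In all 3 genes every *Chd4-ECKO* library was above every *Chd4/Brg1-ECDKO* library.
The scavenger receptor gene *Stab2* (-0.42) and the lectin gene *Clec4g* (-0.88) behaved alike, and the Fc receptor gene *Fcgr2b* (-0.54) overlapped between the groups. *Stab2* was at 116, 95.9 and 139.7 TPM in *Chd4-ECKO* and 82.5, 85.8 and 90.4 TPM in *Chd4/Brg1-ECDKO* libraries, and at 135, 146 and 114 TPM in control and 78.01, 63.9 and 93.1 TPM in *Brg1-ECKO* libraries. The highest members, *Cd36* (0.28) and *Bmp2* (0.13), overlapped between the groups, and *Bmp2* was below 0 after median-ratio scaling.

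General endothelial genes also lay mostly below the median of all genes, 18 of 21 of them. Their own median was -0.10, and 12 were below 0, beside 26.8% of all genes. At an unadjusted p under 0.05, 3 were lower, beside 1.58% of all genes, or 4 after median-ratio scaling, beside 5.16%, with no gene higher at that level in either. The difference between the general and the sinusoidal list was not tested. *Mmrn2*, an extracellular matrix protein of blood vessels, was at 82.3, 80.5 and 93.4 TPM in *Chd4-ECKO* and at 48.1, 55.8 and 57.5 TPM in *Chd4/Brg1-ECDKO* libraries (-0.66 on the log2 scale, adjusted p = 0.331). The *Brg1-ECKO* libraries were lower still, at 35.7, 38.2 and 51.5 TPM. *Emcn*, a sialomucin of veins and capillaries, differed by -0.50 and *Egfl7* by -0.35. *Cdh5* (-0.12, 95% interval -0.47 to 0.24), *Kdr* (0.09, -0.26 to 0.44), *Pecam1* (0.08, -0.30 to 0.45) and the sorting antigen gene *Mcam* (-0.10, -0.51 to 0.30) overlapped between the groups and had intervals that include 0. The highest members were *Ptprb* (0.25) and *Fli1* (0.18), which overlapped. Summed TPM of the general list was 1954, 2023 and 2297 in *Chd4-ECKO* and 1804, 2004 and 2238 in *Chd4/Brg1-ECDKO* libraries. That of the sinusoidal list was 1848, 1921 and 2101 and 1377, 1579.7 and 1718, so the sinusoidal sums did not overlap between these mutants and the general sums did. Control sinusoidal sums, at 1943, 2093 and 1589, overlapped those of both. *Brg1-ECKO* sinusoidal sums reached lowest, at 938, 1220 and 1428, and replicate 1 of that genotype had a summed hepatoblast TPM of 35832. The lower sinusoidal sums were therefore not particular to the double mutant.

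**Figure D4:**
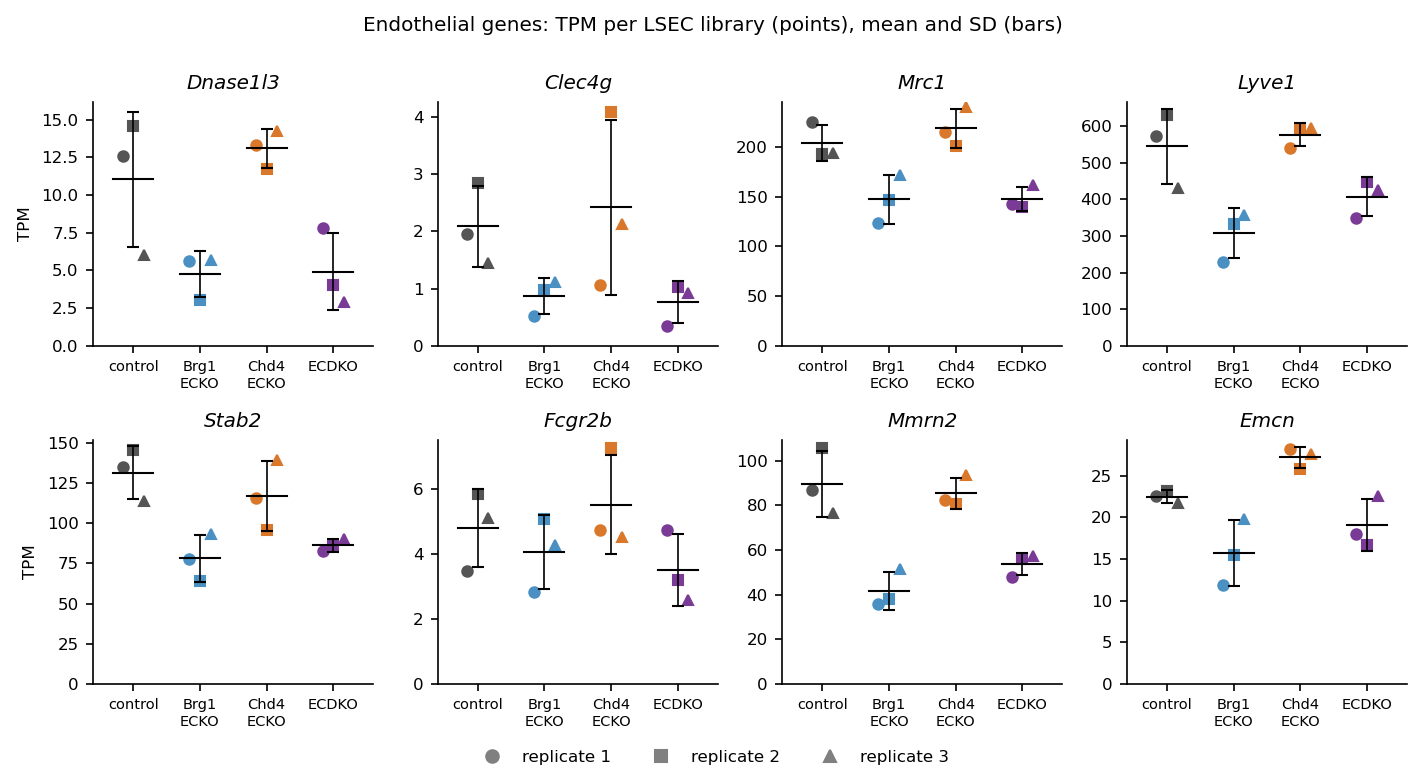
TPM of 6 sinusoidal genes (*Dnase1l3*, *Clec4g*, *Mrc1*, *Lyve1*, *Stab2*, *Fcgr2b*) and 2 general endothelial genes (*Mmrn2*, *Emcn*) in the 12 LSEC libraries, with points for libraries and bars for the mean and SD of 3 libraries. Every gene shown but *Fcgr2b* has all *Chd4/Brg1-ECDKO* libraries below all *Chd4-ECKO* libraries.

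Arterial and venous genes were counted in the same way. Of 14 genes, 11 were above 0 beside 73.2% of all genes, 9 lay above and 5 below the median of all genes, and the list's median was 0.25. Without overlap of libraries, 6 were higher, beside 13.6% of all genes, and none was lower. At an unadjusted p under 0.05, 2 were higher, beside 8.81% of all genes, and 1 after median-ratio scaling, beside 4.05%. The 2 genes were *Gja4* (0.71, adjusted p = 0.397) and the apelin receptor gene *Aplnr*, at 20.6, 25.7 and 30.4 TPM in *Chd4-ECKO* and 30.9, 45.7 and 44.7 TPM in *Chd4/Brg1-ECDKO* libraries (0.64, adjusted p = 0.475). The lowest were *Gja5* (-0.37) and *Hey2* (-0.18), which overlapped between the groups. Of 9 canonical Wnt targets tested, 8 were above the median of all genes, with a median of 0.31. None passed the adjusted threshold (smallest adjusted p = 0.469 by limma). At an unadjusted p under 0.05, 1 was higher, beside 8.81% of all genes. Without overlap of libraries, 4 were higher, beside 13.6%.

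Neuronal genes, which include *Thy1* and *Sncg*, went both ways. Of 20 genes listed 13 were tested, with a median of 0.16, 9 above 0 and 4 below. Of the 13, 4 were higher at an unadjusted p under 0.05, beside 8.81% of all genes, and 3 were lower, beside 1.58%. The counts without overlap of libraries were 4 and 3 as well, beside 13.6% and 2.25%. Besides the 2 DEGs, *Nefh* was lower at an unadjusted p under 0.05. The neurofilament genes *Nefm*, at 2.35, 1.79 and 1.56 TPM in *Chd4-ECKO* and 12.5, 6.504 and 5.42 TPM in *Chd4/Brg1-ECDKO* libraries (1.59, adjusted p = 0.401), and *Nefl* (0.79) had the opposite direction to *Nefh*. *Stmn3* (1.87) and *Map2* (0.55) were higher at an unadjusted p under 0.05 as well. The neuronal list was written with the values of *Thy1* and *Sncg* known, as were the placental, pancreatic and NK homeobox lists with those of their DEGs.

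Markers of other cells of the fetal liver held no gene past the adjusted threshold, and their part in the results above was not tested. Of 22 hepatoblast genes, 21 were above 0 in the double mutant and as many were above the median of all genes, with a median of 0.56. Without overlap of libraries, 6 were higher, beside 13.6% of all genes, and none was lower. *Epcam* alone had an unadjusted p under 0.05 (0.76, adjusted p = 0.47), beside 8.81% of all genes higher at that level. The lowest and highest members were *Serpina1b* (-0.37) and *Apob* (1.15). Summed hepatoblast TPM was 7196, 5736 and 4716 in *Chd4-ECKO*, 10418, 9926 and 6321 in *Chd4/Brg1-ECDKO* and 5528, 9078 and 4399.6 in control libraries. *Afp*, the fetal albumin-like protein of hepatoblasts, was at 2281, 1692 and 1505 TPM in *Chd4-ECKO* and 3456, 3513 and 2147 TPM in *Chd4/Brg1-ECDKO* libraries, below the 13655, 10613 and 11422 TPM of the non-EC cells of double mutants.
Of 18 red blood cell genes, all 18 were below 0, beside 26.8% of all genes, with a median of -0.52, and *Car1* alone had an unadjusted p under 0.05. Without overlap of libraries, 4 were lower, beside 2.25% of all genes. Their summed TPM was 485, 607 and 765 in *Chd4-ECKO* and 389.9, 509 and 302 in *Chd4/Brg1-ECDKO* libraries and overlapped. *Hemgn*, an erythroid nuclear factor, was the next lowest (-0.97). Of 25 myeloid genes tested, 21 were below 0, beside 26.8% of all genes, with a median of -0.32. Without overlap of libraries, 1 was higher, beside 13.6% of all genes, and 1 was lower, beside 2.25%. At an unadjusted p under 0.05, 4 were lower, beside 1.58% of all genes, and none was higher. Among these, the Fc receptor gene *Fcgr3* was at 46.6, 76.2 and 101 TPM in *Chd4-ECKO* and 51.9, 32.1 and 44.6 TPM in *Chd4/Brg1-ECDKO* libraries, and the groups overlapped. Summed myeloid TPM was 1422, 2764 and 2473 and 2176, 1898 and 1782. None of the defining markers of hepatoblasts, red blood cells or myeloid cells was listed at 0 across all 6 libraries.

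Subunits of both complexes showed small differences. Of 20 SWI/SNF genes, 18 were above 0, beside 73.2% of all genes, and 14 were above the median of all genes, with a list median of 0.21. At an unadjusted p under 0.05, 5 were higher, beside 8.81% of all genes, and none lower, against 4 higher and 1 lower after median-ratio scaling, beside 4.05% and 5.16%. The highest were *Arid2* (0.61, adjusted p = 0.459) and *Arid1b* (0.46, adjusted p = 0.469), which encode DNA-binding subunits. *Smarca2*, which encodes the alternative ATPase BRM, differed by 0.22 (95% interval -0.11 to 0.56). Of 14 NuRD genes, 7 were above and 7 below the median of all genes, with a median of 0.13, the same as over all genes. Cell cycle genes (0.06 over 22), p53 targets (0.15 over 18), basement membrane genes (0.07 over 13) and immediate early genes (0.17 over 18) had medians close to that of all genes, and that of interferon response genes was 0.26 over 27. None of these lists held a gene past the adjusted threshold.

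**Figure D5:**
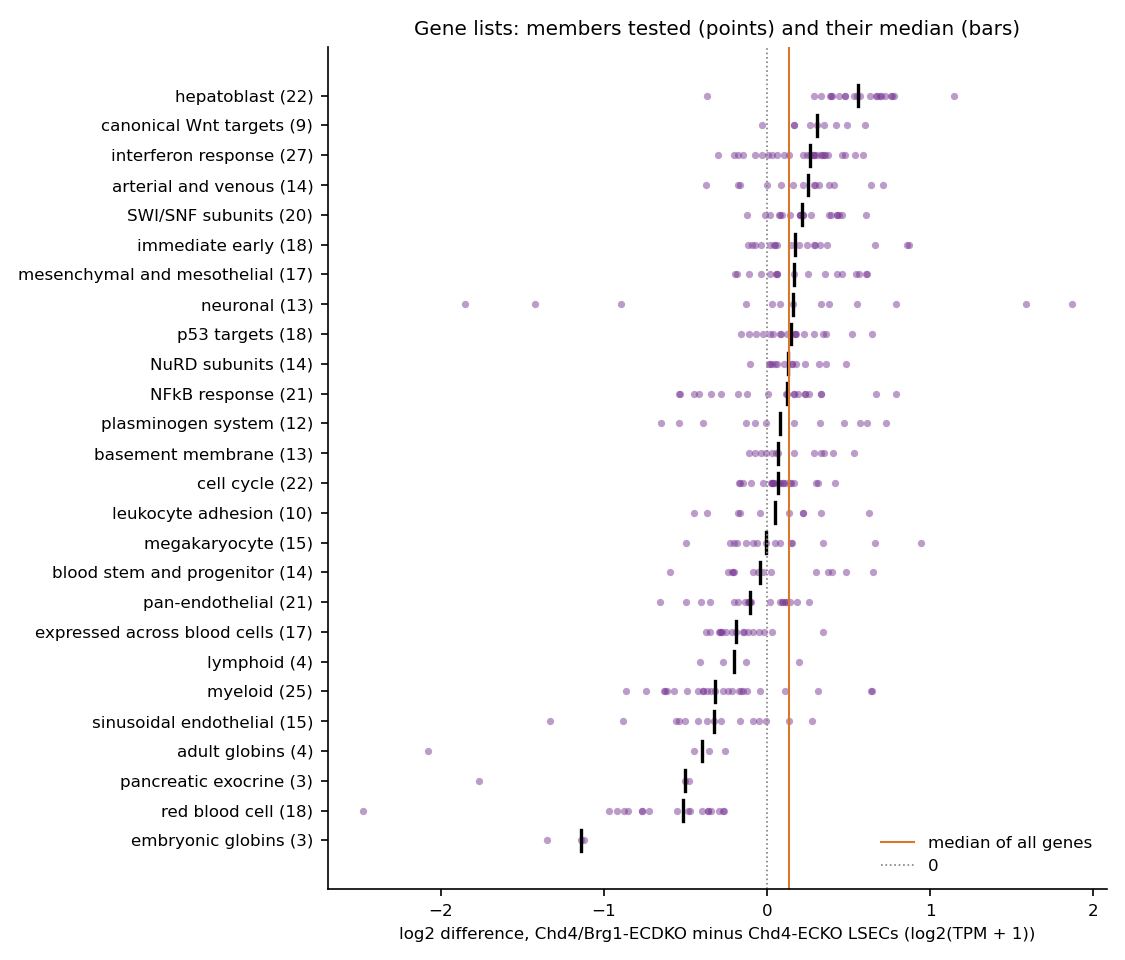
Log2 differences of *Chd4/Brg1-ECDKO* minus *Chd4-ECKO* LSECs for the members of each gene list with at least 3 genes tested. Points are genes, black bars are list medians, the number tested is in brackets, the solid line at 0.13 is the median of all genes and the dotted line is 0. Red blood cell, myeloid and sinusoidal genes lie mostly to the left of both lines and hepatoblast genes to the right of them.

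The same genotypes were compared in the non-EC liver cells left after the CD146+ cells were removed. limma gave 0 DEGs among 12223 genes (0% called), with 2668 genes (21.8%) at an unadjusted p under 0.05. Leaving out *Chd4-ECKO* non-EC replicate 1 gave 861 DEGs, 845 of them higher in the double mutant, and the other 5 single-library omissions gave 0. The difference between LSECs and non-EC cells was tested for each gene over all 24 libraries. It passed an adjusted p of 0.05 for 5 of 13775 genes (0.0363%), namely *Prl3b1*, *Sncg*, *Thy1*, *Cpa1* and *Cyp4b1*. Each of them was below 1 TPM in every non-EC library, as in *Thy1* at 0.508, 0.634 and 0.658 TPM in *Chd4-ECKO* and 0.618, 0.637 and 0.4803 TPM in *Chd4/Brg1-ECDKO* non-EC cells. For genes so low in non-EC cells the interaction repeats the difference in LSECs and is no separate evidence, and 0 genes passed it with a pseudocount of 0.1 TPM or with a block for each embryo. *Nkx2-3* was at 0.591, 1.13 and 0.819 TPM in *Chd4-ECKO* and 1.61, 1.48 and 1.47 TPM in *Chd4/Brg1-ECDKO* non-EC cells, also without overlap and in the same direction as in LSECs.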

How the data were processed

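RNA was measured by poly(A)-selected RNA-seq of 24 libraries, 3 for each of 4 genotypes in LSECs and in non-EC cells of E12.5 liver. The authors trimmed and mapped reads to GRCm39 in CLC Genomics Workbench and deposited a TPM value for each gene and library, which is the unit used here. Read counts were not used here, and the depth reached in each library is unknown beyond the nominal figure that the study gives. The 8 deposited columns of group means equalled the means of the replicate columns (largest difference 6.7e-06 TPM), and 0 pairs of libraries were identical.

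From these values, log2(TPM + 1) was fitted with limma 3.58.1 in R 4.3.3 over the 12 LSEC libraries of all 4 genotypes, with a variance trend, for genes at 1 TPM or more in at least 3 of them. Differences on this scale understate the fold change of low genes. The Benjamini-Hochberg adjustment covered every gene tested, and a DEG needed a log2 difference beyond 1 in either direction together with an adjusted p under 0.05. The non-EC cells were fitted alone in the same way, and the difference between fractions was tested as an interaction over all 24 libraries. Files were read with the data.table package, version 1.17.8. On simulated data with 200 changed genes of 13444, the fit recovered 97% at a log2 difference of 1.5 and 99% at 2.5, and it called 1 other gene.

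Named genes were all DEGs, the 10 with the smallest p in each direction without overlap, 13 genes the study followed and *Madcam1*, the 8 *Chd4-ECKO* DEGs with the smallest p between the mutants, and the lowest and highest 2 of each gene list. *Mrc1*, *Lyve1*, *Fcgr2b*, *Egfl7*, *Cdh5*, *Kdr*, *Pecam1*, *Mcam*, *Nefl*, *Map2*, *Epcam*, *Smarca2*, *Tcfl5*, *Snhg11*, *Il10ra*, *Plcg2*, *Fmnl1*, *Chp2*, *Ly6a*, *Prss1* and *Ctrb1* fall outside this rule and were chosen after their values were seen or for what they encode. The libraries, genes and 28 lists were chosen with earlier results of these data known. The labels give every genotype replicates 1 to 3 without saying what a number marks. Deviations from the group means correlated between same-numbered *Chd4-ECKO* and *Chd4/Brg1-ECDKO* LSECs (0.157, 0.231 and 0.124), each above 0.1, so the numbers were taken to pair these libraries, while in non-EC cells (0.311, 0.0419 and 0.397) they were not. Different-numbered pairs ranged from -0.245 to 0.0754 in LSECs and from -0.423 to 0.177 in non-EC cells. Deviations cancel within a group, so same-numbered and different-numbered correlations are not independent, and the pairing stays an assumption. The main fit has no replicate block, and the blocked value is given where it changes a call. In LSECs 1897 genes had an unadjusted limma p under 0.05 with the block, against 1397 without it. Positions and promoters were read from the GRCm39 genome with GENCODE vM39. Alternatives were another pseudocount, other filters and scalings, library weights, a replicate block, a sex covariate, a fit restricted to the libraries compared, and the omission of single libraries.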

Additional observations from a re-analysis of the deposited data

Results flagged for a closer look

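The log2 difference between *Chd4/Brg1-ECDKO* and *Chd4-ECKO* differed between LSECs and non-EC cells, by the limma interaction over 13775 genes, for 5 genes. The difference in LSECs minus that in non-EC cells was -1.87 for *Prl3b1* (adjusted p = 0.00229), -1.7 for *Sncg* (adjusted p = 0.00326), -1.83 for *Thy1* (adjusted p = 0.00573), -1.77 for *Cpa1* (adjusted p = 0.00656) and -1.31 for *Cyp4b1* (adjusted p = 0.02). All 5 genes were below 1 TPM in every non-EC library, so that the value repeats the difference in LSECs and is no separate evidence of a difference between the cell types. With LSEC and non-EC libraries that share a genotype and a number taken as an embryo, an alternative chosen after seeing the data, none of the 5 passed (adjusted p = 0.0569, 0.0682, 0.165, 0.0598 and 0.0598).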

How the results depend on the processing

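Against 5 DEGs and 5 genes past the adjusted p alone, a filter on a mean of 5 TPM, TPM without mitochondrial genes and *Eif2s3y* as a sex covariate gave 3 and 3 each (*Thy1* and *Sncg* in all, with *Nkx2-3*, *Prl3b1* and *Cpa1* in turn), library weights gave 65 (40 higher, 25 lower) and 202, and a fit of the compared groups alone gave 52 (33 higher, 19 lower) and 69. Leaving out single libraries gave 0 to 11 of each, with 11 when *Brg1-ECKO* replicate 1 was left out, an alternative chosen after seeing the data because its summed hepatoblast TPM was 35832. The replicate block gave 6 DEGs, adding *Car1*, and 7 genes past the adjusted p, adding *Pdcd4*, and it changed no other call of a named gene. In non-EC cells library weights gave 484 DEGs, the compared groups alone 1 (*Hmga1b*) and single omissions 0 to 861. The interaction gave 0 genes with a pseudocount of 0.1 TPM, 1 with the filter on a mean of 5 TPM, 1184 with library weights, 3 with the compared groups alone, 0 with an embryo block across fractions and 3 to 159 with single omissions, 159 without *Chd4-ECKO* non-EC replicate 1. The cause of these changes was not tested. Quantile normalization turned *Smarca4* to -0.00431 and *Rela* to -0.00499, median-ratio scaling turned *Smarca4* to -0.0700, *Rela* to -0.00813 and *Bmp2* to -0.0113, and library weights turned *Smarca4* to -0.0523 and *Serpina1b* to 0.0492. Single omissions took *Smarca4* from -0.0886 to 0.159, *Plau* from -0.212 to 0.015, *Bmp2* from -0.0651 to 0.275, *Hey2* from -0.436 to 0.137, *Serpina1b* from -0.974 to 0.474 and *Nkx6-2* from -0.0258 to 0.221. The other named genes in these runs kept their direction, among them all 5 DEGs. Without read counts, the sampling error of low genes such as *Prl3b1* cannot be given.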
